A study of Mus musculus with 6 samples.

Results

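The miR-200 family was followed in mouse thymus by 8 mature microRNAs, chosen by name from the 1390 miRNAs listed in the deposited count table. They are the 3p strands mmu-miR-200b-3p, mmu-miR-200a-3p, mmu-miR-429-3p, mmu-miR-200c-3p and mmu-miR-141-3p and the 5p strands mmu-miR-200b-5p, mmu-miR-200a-5p and mmu-miR-141-5p, written below without the species prefix. All 8 were found in the table and all 8 passed the filter on low counts, among 519 miRNAs tested. Small RNAs were sequenced from whole thymus of C57BL wild-type mice aged 5 weeks, with 3 mice in each group. Control mice had no exposure, and the irradiated mice were given an X-ray dose of 6 Gy (800 cGy/min, source 40 cm away). All thymi were taken after 24 h.

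MicroRNAs are short RNAs that pair, mainly through bases 2 to 8 at their 5′ end (the seed), with target messenger RNAs and lower their output. The miR-200 family is made mainly in epithelial cells, where it keeps the transcription factors Zeb1 and Zeb2 low and so sustains E-cadherin and the epithelial state. In the thymus, epithelial cells form the framework that supports and selects developing T cells, while most cells of the organ are thymocytes. Each hairpin precursor is cut into a 5p and a 3p strand, of which the 3p strand is the main product in this family.

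The sequences are shown first because members with different values are near-copies of each other. The 5 mature 3p strands carry 2 seeds, which differ at base 4. Each strand is written 5′ to 3′ with the seed in capitals, from the deposited table, and all 8 are the same as the RefSeq entries (GRCm38.p6).
miR-200b-3p: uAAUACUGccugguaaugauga
miR-200c-3p: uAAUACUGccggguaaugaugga
miR-429-3p: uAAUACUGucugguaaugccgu
miR-200a-3p: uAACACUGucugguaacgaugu
miR-141-3p: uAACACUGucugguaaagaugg
miR-200b-5p: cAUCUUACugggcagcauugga
miR-200a-5p: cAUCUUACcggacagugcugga
miR-141-5p: cAUCUUCCagugcaguguugga

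No miRNA outside the family carried either seed of the 3p strands or the seed common to miR-200b-5p and miR-200a-5p. The seed of miR-141-5p was shared with miR-6769b-3p, which had no count in any library. Counting from the 5′ end over 22 bases, miR-200b-3p and miR-200c-3p differed at 2 bases (U11G and A22G, the base of miR-200b-3p first), and miR-200c-3p has 1 more base at its end. MiR-200a-3p and miR-141-3p also differed at 2 bases (C17A and U22G). Every other pair of 3p strands differed at 4 or 5 bases. How reads that fit more than 1 of these strands were assigned is not given in the sources used here, so the members that differ at 2 bases are the least certain to separate.

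The members come from 2 clusters on different chromosomes, both read from the minus strand in GRCm38. On chromosome 4 the cluster spans 1846 bases, in the order Mir200b (156055681 to 156055750), Mir200a (156054896 to 156054985) and Mir429 (156053905 to 156053987). In the GENCODE annotation these hairpins lie in introns of Ttll10, a protein-coding gene of the tubulin tyrosine ligase-like family. They also overlap the non-coding transcript Gm13648, with Mir429 in an exon of it and the others in its introns. On chromosome 6 the cluster spans 477 bases, with Mir200c (124718322 to 124718390) before Mir141 (124717914 to 124717985). Both lie in an intron of the non-coding gene Gm15884, between Phb2, which encodes prohibitin 2, and Ptpn6, which encodes the phosphatase SHP-1. Mir141 also overlaps an exon of Gm29008.

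The hairpins show how the compared strands are paired within a precursor, with the 5p strand and then the 3p strand in capitals.
Mir200b: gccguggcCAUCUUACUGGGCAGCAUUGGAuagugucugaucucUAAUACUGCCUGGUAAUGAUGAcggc
Mir200a: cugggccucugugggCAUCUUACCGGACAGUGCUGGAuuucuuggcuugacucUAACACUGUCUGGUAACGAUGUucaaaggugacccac
Mir200c: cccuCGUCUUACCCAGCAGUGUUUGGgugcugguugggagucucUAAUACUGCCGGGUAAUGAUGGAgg
Mir141: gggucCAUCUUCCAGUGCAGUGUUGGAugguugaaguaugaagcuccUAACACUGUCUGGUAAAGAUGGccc

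Library totals ranged from 7730641 to 9287017 counts. Levels are given in CPM, the counts scaled to a fixed library total after adjustment by trimmed-mean (TMM) factors, and 3 counts, the level that a count of 0 would still allow, came to 0.278 to 0.428 CPM. That limit covers counting error only, since the labels name no molecular identifiers. No member was at 0 in any library. The tissue was checked by miRNAs of its main cells: 9 thymocyte and pan-haematopoietic miRNAs summed to 107077 to 175802 CPM in control libraries and to 7410 to 12021 CPM in irradiated ones. Among the other lists, 4 muscle miRNAs summed to 207 to 486 CPM in control libraries and to 607, 20128 and 13405 CPM in irradiated replicates 1, 2 and 3. The red-cell list summed to 480 to 724 CPM in control and to 604, 5028 and 1982 CPM in the same irradiated replicates. Irradiated replicates 2 and 3 thus stood apart from replicate 1 in these lists, and results that move without them are given with both values.

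After irradiation 4 of the 8 members were higher and 0 were lower at an adjusted p under 0.05, in edgeR's quasi-likelihood test with Benjamini-Hochberg adjustment over all tested miRNAs. MiR-200b-3p and miR-200c-3p rose the most, followed by miR-200b-5p and miR-200a-5p. Of all tested miRNAs 27.7% were called higher by this rule, and 33.5% lower. With DESeq2 6 members and 30.8% of all tested miRNAs were called higher, with limma-voom 5 and 26.4%, and with upper-quartile scaling factors 7 and 39.7%. The median log2 fold change was 0.95 over the 8 members and 0.01 over all tested miRNAs. All 8 members had a positive value, as did 50.3% of all tested miRNAs. Groups did not overlap, with each irradiated library above each control library, for 6 of the 8 members and for 32.0% of all tested miRNAs. In bulk tissue, more cells of a type and more RNA per cell cannot be told apart, and a gain in a share cannot be told apart from a loss of other RNA. Of the thymocyte list 8 of 9 fell in the same libraries in which these members were higher, and their part in the result was not tested.

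**Figure D1:**
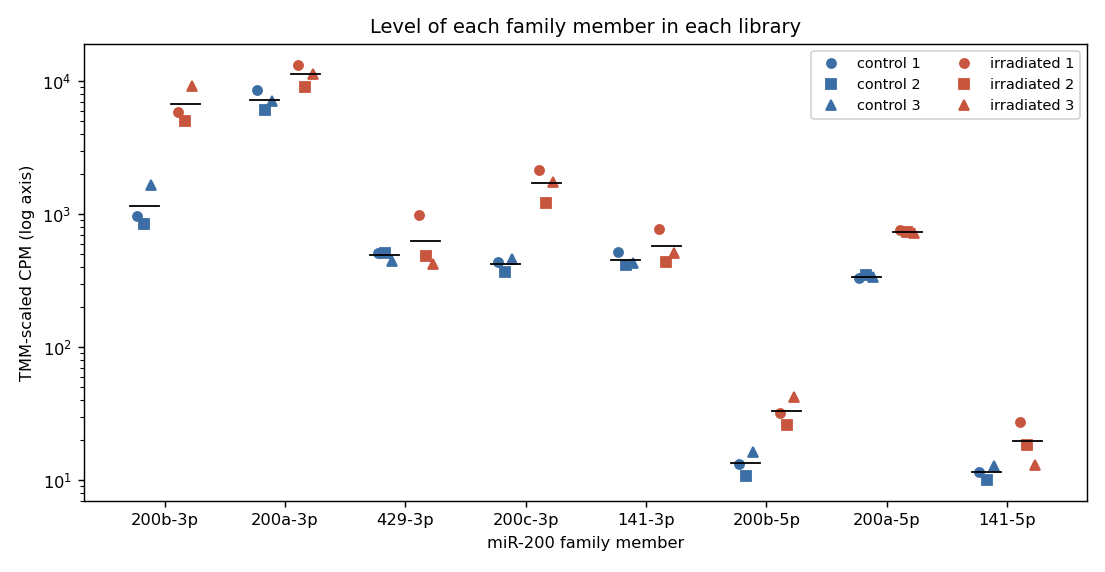
Level of each miR-200 family member (TMM-scaled CPM, log axis) in the 3 control libraries (blue) and the 3 irradiated libraries (red), with a black line at each group's mean. The groups are apart for miR-200b-3p, miR-200c-3p, miR-200a-3p and the 5p strands, narrowly so for miR-141-5p, and overlap for miR-429-3p and miR-141-3p.

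MiR-200b-3p, the first miRNA of the chromosome 4 cluster, was at 972, 847 and 1643 CPM in control replicates 1, 2 and 3. In irradiated replicates 1, 2 and 3 it was at 5858, 4978 and 9242 CPM. The lowest irradiated library lay well above the highest control library, and replicate 3 was the highest of each group. The means were 1154 ± 428 and 6693 ± 2251 CPM (SD, n = 3 each), a difference of 2.54 ± 0.35 (SE) on the log2 scale (edgeR adjusted p of 2.0e-04). This was rank 18 of 519 by increase. By level it went from rank 59 among control means to rank 20 among irradiated means. Among the irradiated libraries the muscle and red-cell lists were lowest in replicate 1. There miR-200b-3p was higher than in replicate 2 and lower than in replicate 3. With replicate 1 as the only irradiated library the log2 fold change of miR-200b-3p was 2.56. The part of these lists in its level was not tested.

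MiR-200c-3p has the same seed and comes from the other cluster. Its level was 434, 367 and 457 CPM in control replicates and 2142, 1210 and 1746 CPM in irradiated replicates, again without overlap. The means were 419 ± 46.4 and 1699 ± 467 CPM (SD, n = 3 each), a log2 fold change of 2.02 ± 0.28 (SE, edgeR adjusted p of 2.0e-04), which was rank 36 of 519. The order of the irradiated libraries was not that of miR-200b-3p, since replicate 1 was the highest here and replicate 3 there.

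MiR-429-3p carries the same seed as these but did not pass the test. Its level was 510, 508 and 447 CPM in control replicates and 981, 484 and 424 CPM in irradiated replicates. Only irradiated replicate 1 was above the control libraries, and replicate 3 was below all of them. The log2 fold change was 0.37 ± 0.33 (SE, edgeR adjusted p of 0.351). Without irradiated replicate 1 it was −0.14 (adjusted p of 0.663), so the direction rested on that library.

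MiR-200a-3p was by far the most abundant member, at rank 20 of 519 by control mean. It was at 8570, 6102 and 7048 CPM in control replicates and at 13256, 9041 and 11382 CPM in irradiated replicates. The groups did not overlap, but the gap between control replicate 1 and irradiated replicate 2 was small. The log2 fold change of 0.63 ± 0.25 (SE) had an edgeR adjusted p of 0.0515, just outside the threshold. Over the 16 alternatives fixed in the plan the adjusted p ranged from 0.0103 to 0.190. Without irradiated replicate 2 the log2 fold change was 0.97 and passed (adjusted p of 0.0103).

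MiR-141-3p shares the seed of miR-200a-3p and the cluster of miR-200c. It was at 521, 416 and 427 CPM in control replicates and at 776, 436 and 511 CPM in irradiated replicates, so that irradiated replicates 2 and 3 lay within the control range. The log2 fold change was 0.34 ± 0.28 (SE, edgeR adjusted p of 0.312). Without irradiated replicate 2 it was 0.70 and passed (adjusted p of 0.0409). The adjusted p of the 16 alternatives fixed in the plan lay between 0.0409 and 0.907. Without irradiated replicate 1 the log2 fold change was 0.04.

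The 5p strands were scarcer than the 3p strands of the same hairpins, and their log2 fold changes ran from 0.77 to 1.32, against 0.34 to 2.54 for the 3p strands. MiR-200a-5p was tightly grouped, at 331, 346 and 336 CPM in control replicates and at 765, 730 and 717 CPM in irradiated replicates. Its log2 fold change was 1.13 ± 0.22 (SE, edgeR adjusted p of 0.0019). MiR-200b-5p was at 13.1, 10.8 and 16.2 CPM in control replicates and at 32.1, 25.8 and 41.9 CPM in irradiated replicates, a log2 fold change of 1.32 ± 0.31 (SE, edgeR adjusted p of 0.0046). The groups did not overlap for either of these strands. MiR-141-5p, with 81 to 209 reads per library, had levels of 11.6, 10.02 and 12.9 CPM in the control mice and of 27.3, 18.5 and 13.1 CPM in the irradiated mice. Irradiated replicate 3 was barely above the highest control library. The log2 fold change of miR-141-5p was 0.77 ± 0.34 (SE, edgeR adjusted p of 0.0688). It passed without irradiated replicate 2 (1.02, adjusted p of 0.0287) or without irradiated replicate 3 (1.09, adjusted p of 0.0228). The 16 alternatives fixed in the plan gave adjusted p-values between 0.0104 and 0.250.

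The strand that accompanies miR-200c-3p, miR-200c-5p, is no member of the list but comes from the same hairpin. It had 2, 13 and 5 reads in control replicates and 14, 2 and 9 reads in irradiated replicates, and it did not pass the filter on low counts.

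**Figure D2:**
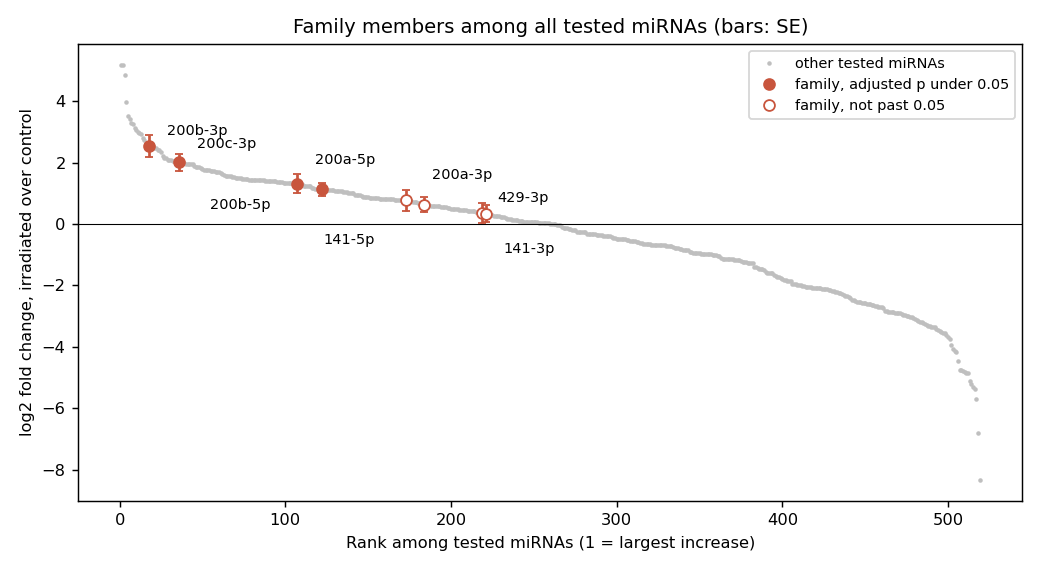
All 519 tested miRNAs in order of their log2 fold change (irradiated over control, y axis; rank, x axis), with the 8 family members in red and their SE as bars; filled points passed an adjusted p of 0.05. The members run from rank 18 (miR-200b-3p, 2.54) to rank 221 (miR-141-3p, 0.34), all on the positive side.

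Counted as a share of all reads, the family held 0.935%, 1.200% and 1.03% of the counts in control replicates and 2.11%, 1.66% and 2.44% in irradiated replicates. The mean shares were 1.05% ± 0.135 and 2.07% ± 0.392 (SD, n = 3 each). The share of miR-200a-3p alone went from 0.751% ± 0.0864 to 1.07% ± 0.160 (SD, n = 3 each), and the exact two-sided permutation p was 0.1, which is the lower limit for 3 libraries a group. The make-up of the family differed between the groups too. MiR-200a-3p held 75.4%, 70.9% and 67.8% of the family's reads in control replicates and 55.6%, 53.4% and 47.3% in irradiated replicates. MiR-200b-3p held 8.56%, 9.84% and 15.8% in control and 24.6%, 29.4% and 38.4% in irradiated replicates. The ranges of both shares were apart between the groups.

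Strands with the seed AAUACUG together went from 20.5% ± 3.85 of the family's reads to 41.5% ± 5.18 after irradiation (SD, n = 3 each). Among these, the mean share of miR-200b-3p went from 11.4% to 30.8% and that of miR-200c-3p from 4.16% to 7.80%. The share of miR-429-3p went the other way, from 4.90% to 2.91%. Strands with AACACUG went from 75.9% ± 4.03 to 54.8% ± 4.86. The chromosome 6 cluster, miR-200c with miR-141, kept a small share, with 8.79% ± 0.379 in control and 10.5% ± 1.59 in irradiated libraries. These differences in make-up were not tested.

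**Figure D3:**
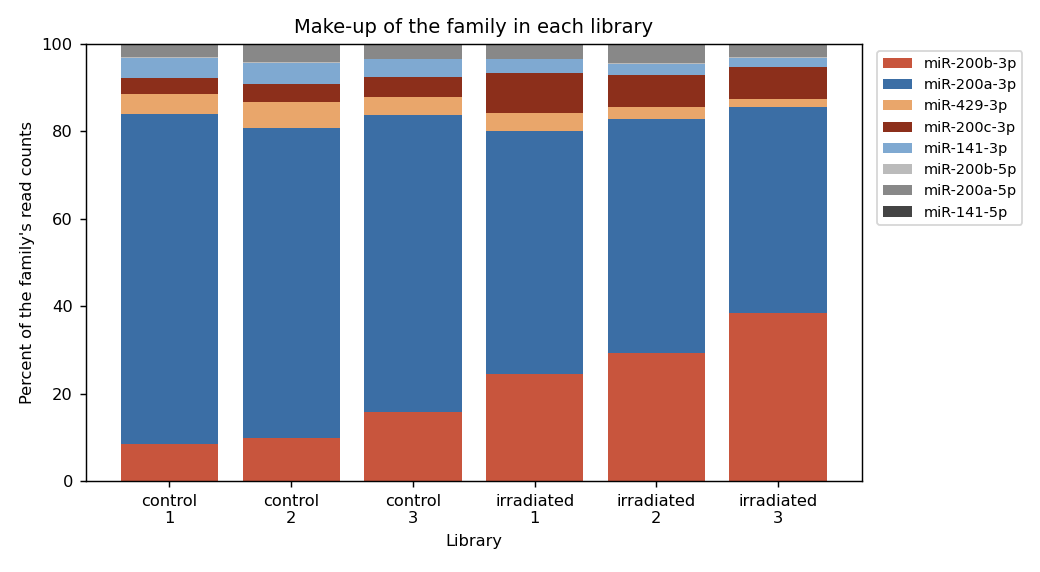
Percent of the family's read counts held by each of the 8 members (stacked bars, y axis) in each library (x axis). MiR-200a-3p (blue) is 67.8% to 75.4% in control and 47.3% to 55.6% in irradiated libraries, and miR-200b-3p (red) 8.56% to 15.8% and 24.6% to 38.4%.

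Because 2 members of the same library share its depth and its scaling factor, their log2 difference within a library does not depend on the scaling. Such differences were compared for 8 pairs, with exact two-sided permutation tests that cannot go below 0.1. The groups did not overlap for 6 of the 8 pairs, each with an exact permutation p of 0.1. After Benjamini-Hochberg adjustment over the 8 pairs this permutation p was 0.133, so no pair could pass 0.05. The pairs were chosen with earlier results of these data known. The share of other miRNA pairs without overlap was not computed, so the count of 6 has no background to be read against.

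Within the chromosome 4 cluster, miR-200b-3p minus miR-200a-3p was −3.14, −2.85 and −2.10 log2 units in control replicates and −1.18, −0.86 and −0.30 in irradiated replicates. The difference thus moved by 1.92 toward miR-200b-3p (means −2.70 ± 0.54 and −0.78 ± 0.44, SD, n = 3 each, exact permutation p of 0.1). Against miR-429-3p, which has the same seed and lies in the same cluster, miR-200b-3p was higher by 0.93, 0.74 and 1.88 in control and by 2.58, 3.36 and 4.45 in irradiated replicates. That difference moved by 2.28, the most of the 8 pairs (exact permutation p of 0.1).

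In the chromosome 6 cluster, miR-200c-3p minus miR-141-3p was −0.26, −0.18 and 0.10 log2 units in control replicates and 1.46, 1.47 and 1.77 in irradiated replicates. The means of −0.12 ± 0.19 and 1.57 ± 0.18 (SD, n = 3 each) differed by 1.69 (exact permutation p of 0.1). The strands were thus about level with each other in control thymus and apart in every irradiated library.

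Across the clusters, the compared pairs with the same seed showed shifts of 0.56 and 0.33. MiR-200c-3p and miR-429-3p also share a seed across the clusters, but their difference was not among those compared. Their log2 fold changes lay apart, at 2.02 ± 0.28 for miR-200c-3p and 0.37 ± 0.33 for miR-429-3p (SE). The small shifts thus do not hold for every such pair. MiR-200b-3p minus miR-200c-3p was 1.16, 1.20 and 1.85 in control and 1.45, 2.04 and 2.40 in irradiated replicates, with overlapping groups (exact permutation p of 0.2). MiR-200a-3p minus miR-141-3p went from 3.99 ± 0.10 to 4.32 ± 0.20 (SD, n = 3 each, exact permutation p of 0.1), and irradiated replicate 1, at 4.09, was close to the highest control value of 4.04. Whether the shifts of 0.56 and 0.33 differ from those within the clusters was not tested.

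The ratio of the strands of a hairpin differed between the groups, without overlap, for miR-200b and miR-200a. MiR-200b-3p exceeded miR-200b-5p by 6.19, 6.27 and 6.64 log2 units in control and by 7.50, 7.58 and 7.78 in irradiated replicates, a shift of 1.25 toward the 3p strand (exact permutation p of 0.1). For miR-200a the shift was in the other direction, −0.50, from 4.41 ± 0.28 to 3.91 ± 0.25 (SD, n = 3 each, exact permutation p of 0.1), and here irradiated replicate 1, at 4.12, lay just below the lowest control value of 4.14. For miR-141 the shift was −0.40 with overlapping groups (exact permutation p of 0.2). In read shares, the 3p strand made up 98.8% ± 0.187 of the reads from the miR-200b hairpin in control and 99.5% ± 0.0476 in irradiated libraries. For the miR-200a hairpin it made up 95.5% ± 0.823 and 93.7% ± 1.06 (SD, n = 3 each). The difference between both 5p strands, miR-200b-5p minus miR-200a-5p, was described after the values were seen. It averaged −4.65 ± 0.31 before and −4.49 ± 0.37 after irradiation (SD, n = 3 each), with overlapping groups.

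**Figure D4:**
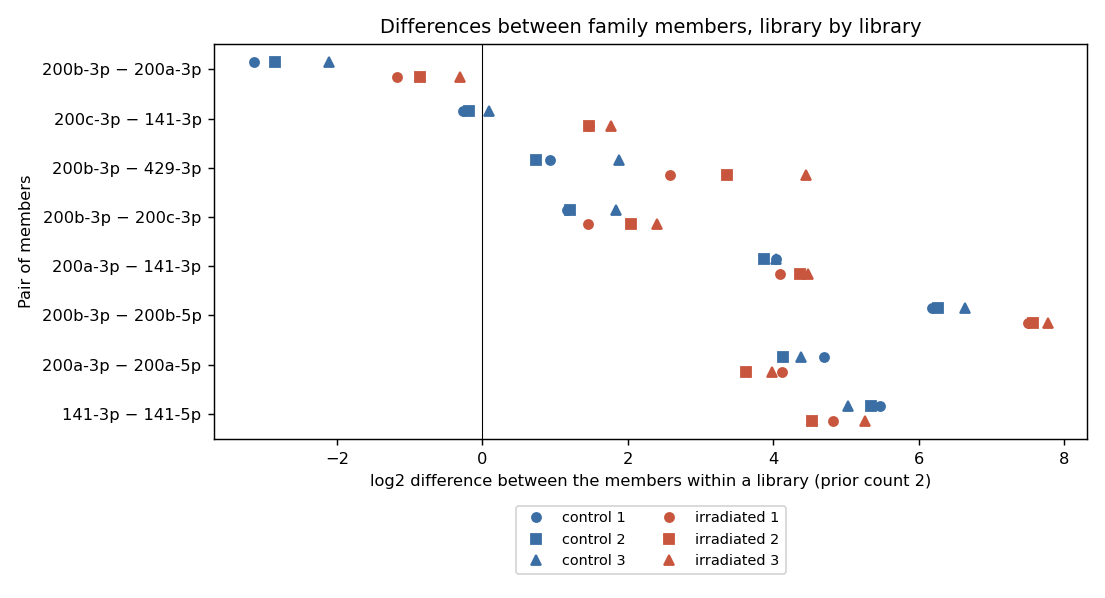
Log2 difference between the named members within each library (x axis) for the 8 pairs (y axis), with control libraries in blue and irradiated libraries in red. MiR-200c-3p minus miR-141-3p goes from about level in control libraries (−0.26 to 0.10) to 1.46 to 1.77 in irradiated libraries. No overlap is seen for 6 of the 8 pairs, and the share among other miRNA pairs was not computed.

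**Figure D5:**
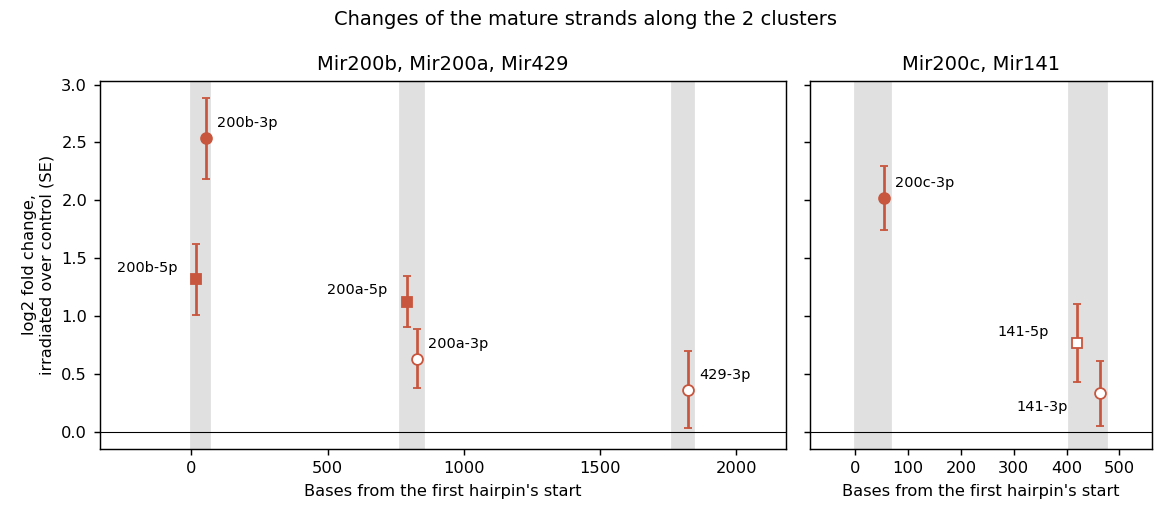
Log2 fold change with its SE (y axis) of each mature strand at its distance from the start of the first hairpin of its cluster (x axis, bases), with hairpins shaded, 3p strands as circles, 5p strands as squares and filled symbols for an adjusted p under 0.05. In both clusters the 3p strand of the first hairpin has the highest value (2.54 and 2.02), and the later 3p strands lie between 0.34 and 0.63.

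The other epithelial miRNAs listed for comparison were miR-205-5p, miR-203-3p, miR-31-5p, miR-183-5p, miR-182-5p, miR-96-5p and miR-375-3p. All 7 were tested, and 3 of them were called higher and 0 lower, with a median log2 fold change of 0.59. Of all tested miRNAs 27.7% were called higher and 33.5% lower, with a median of 0.01. MiR-205-5p, a miRNA of stratified and thymic epithelium, went from 789, 616 and 674 CPM in control replicates to 1940, 1411 and 1977 CPM in irradiated ones (1.36 ± 0.25 SE), with an adjusted p of 0.0012 in edgeR. The skin miRNA miR-203-3p, which promotes differentiation of epidermal cells, rose by 1.32 ± 0.23 (SE, edgeR adjusted p of 9.9e-04). MiR-182-5p rose by 0.80 ± 0.27 (SE, edgeR adjusted p of 0.0264), and its cluster neighbours miR-183-5p (0.50) and miR-96-5p (0.59) did not pass. MiR-375-3p, a miRNA of endocrine and some epithelial cells, was at 895 to 1353 CPM in control and at 951 to 1301 CPM in irradiated libraries (0.03). The summed level of the 7 was 4755 to 5162 CPM in control and 7812 to 11126 CPM in irradiated libraries. No difference between these miRNAs and the family was tested.

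Other cell types were read from the same lists, beside 27.7% higher and 33.5% lower among all tested miRNAs. Of 9 stromal and vascular miRNAs, 6 were higher and 0 lower (median 1.43), led in level by miR-143-3p. MiR-143-3p itself did not pass (0.73, edgeR adjusted p of 0.118), and its groups overlapped. The summed level of this list overlapped too, at 95824 to 246485 CPM in control and 224582 to 344365 CPM in irradiated libraries. Of 9 thymocyte and pan-haematopoietic miRNAs, 0 were higher and 8 lower (median −3.74), led by miR-181a-5p. Of the muscle list 3 of 4 were higher (median 4.41) and of the red-cell list 2 of 3 (median 2.74), led by miR-1a-3p and miR-451a. The groups overlapped for both red-cell miRNAs called. In irradiated replicate 1 miR-451a was at 335 CPM (234 to 374 in control) and miR-144-3p at 9.26 CPM (8.56 to 12.0 in control). Of the 2 myeloid miRNAs, led by miR-223-3p, 0 passed in either direction (median 0.70). Of the neural and endocrine list 1 of 2 tested was higher and 1 lower (median 0.20), led by miR-7a-5p. The part of these lists in the family's values was not tested.

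The miRNAs whose pattern was most like the family's were sought among the 303 tested miRNAs outside it with a mean of at least 10 CPM. The measure was the Pearson correlation over the 6 libraries with the mean log2 CPM of the 5 family 3p strands, which reflects mainly the difference between the 2 groups. That mean joins unlike strands, since miR-200b-3p correlated at 0.96 with miR-200c-3p and at 0.21 with miR-429-3p. The 5 most alike were miR-125b-1-3p (0.997), miR-100-5p (0.992), miR-27b-5p (0.984), miR-146a-5p (0.984) and miR-205-5p (0.978). Their log2 fold changes were 1.36, 1.33, 1.39, 1.30 and 1.36. All 5 were highest or second highest in irradiated replicate 1, the library that was also highest for 6 of the 8 family members. The 5 were picked by likeness over these libraries, so a shared order is part of the choice and no separate support. MiR-125b-1-3p had 40.7, 36.3 and 40.0 CPM in control mice and 133, 71.9 and 96.0 CPM in irradiated mice, where replicate 1 was highest and replicate 2 lowest. The same order of the irradiated libraries held for miR-200c-3p, miR-200a-3p and miR-141-3p.

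The authors' deposited table gives for the same comparison log2 fold changes of 2.61 for miR-200b-3p, 2.11 for miR-200c-3p, 1.39 for miR-200b-5p and 1.19 for miR-200a-5p, each with an adjusted p under 0.05. In the authors' deposited table miR-200a-3p (0.71, adjusted p of 0.0747), miR-141-5p (0.86, 0.0781), miR-429-3p (0.47, 0.349) and miR-141-3p (0.43, 0.346) did not reach that level. Of the miRNAs tested here 26.8% were higher at that level in the authors' deposited table. These values come from the same libraries and are no separate support.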

How the data were processed

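The values used are the deposited read counts per mature miRNA and library, not normalized, as the column headers name them. The authors' log2 fold changes (irradiated relative to control) and adjusted p-values were copied as deposited. The submitters' processing notes name DESeq2 1.10.1. Aligner, counter and build: not given in the sources used here. Per the labels, the molecule is polyA RNA and each group has 3 mice. A further 6 count columns that match no label were not used.

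Counts were fitted with edgeR 4.0.16 in R 4.3.3 (TMM factors from 0.823 to 1.39, filterByExpr defaults, robust quasi-likelihood test) over 519 miRNAs, and the code was tested on simulated data. The threshold was an adjusted p of 0.05 without a fold minimum. SE is the log2 fold change divided by the square root of F. Within-library differences used log2 CPM with a prior count of 2 and exact permutation tests in SciPy 1.17.1. No replicate library was a copy of another.

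The members, pairs, marker lists and tests were chosen with earlier results of these data known. Named were the members, other strands of their hairpins, miRNAs sharing a seed, the 5 most alike, and the marker lists with their most abundant miRNA. Alternatives were other scaling factors, other filters, DESeq2 1.42.0, limma-voom (limma 3.58.1), a replicate block, leaving out each library, known miRNAs only, leaving out miR-21a-5p and a prior count of 0.5. Irradiated replicate 1 as the only irradiated library was added after seeing the data. Coordinates and hairpins are from RefSeq (GRCm38.p6), and host genes from GENCODE M21.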

Additional observations from a re-analysis of the deposited data

How the results depend on the processing

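The 4 members called higher kept their direction and call under all 17 alternative fits (4 to 8 members called, none lower). With upper-quartile factors 7 were called (adding 1.08 for miR-200a-3p, 1.22 for miR-141-5p and 0.79 for miR-141-3p), and leaving out each library gave 4 to 7, with 7 (and 153 of 537 tested miRNAs higher) without irradiated replicate 2. With irradiated replicate 1 as the only irradiated library, whose spread is assumed to equal that of the controls, all 8 were called (miR-200a-3p 1.07, miR-429-3p 1.20, miR-141-3p 0.96, miR-141-5p 1.45), as were 149 of 568 tested miRNAs in the higher direction. MiR-200a-3p also passed with median-of-ratios factors (0.76), DESeq2 (0.76), limma-voom (0.63), known miRNAs only (0.64), without miR-21a-5p (0.83) and with the replicate block (0.63). MiR-141-5p passed with median-of-ratios factors (0.91), DESeq2 (0.91) and without miR-21a-5p (0.98). Leaving out each library gave 0.49 to 0.97 for miR-200a-3p, −0.14 to 0.72 for miR-429-3p, 0.042 to 0.70 for miR-141-3p and 0.43 to 1.09 for miR-141-5p. The cause of these changes was not tested.

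Scaling moved the median log2 fold change of all tested miRNAs from 0.01 to 0.12 (median-of-ratios), −0.13 (library totals) or 0.44 (upper quartile), and with upper-quartile factors 59.7% of calls were higher, against 45.3%. Over all miRNAs 318 were called, 266 to 374 with each library left out and 210 of 310 tested at a mean of at least 10 CPM, where fewer miRNAs were tested. The family's share was higher by 1.02 percentage points of all counts and by 1.71 of the counts without miR-21a-5p. All 8 within-library differences kept their direction under their alternatives. The deviations of same-numbered control and irradiated libraries from their group means correlated at 0.10, −0.02 and 0.23. Differently numbered libraries gave −0.25 to 0.11. With 3 libraries a group these values cannot decide whether the numbers pair libraries, and the main fit left them unpaired. With the replicate block 298 miRNAs were called, 127 of them higher, with 5 members among these. By replicate number, the shift of miR-141-3p minus miR-141-5p ran from −0.80 to 0.24. Low reads limit miR-200b-5p, miR-141-5p and miR-200c-5p most.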

Other observations

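A base outside the seed sets the called 3p strands apart from the others, a pattern noticed after the values were seen and not tested. MiR-200b-3p and miR-200c-3p, which rose, both differ by C9U (counted from the 5′ end, their base first) from each of miR-429-3p, miR-200a-3p and miR-141-3p, which did not pass. The seed does not divide them in that way, since miR-429-3p has the seed of the strands that rose. With 5 strands this base cannot be told apart from other features that divide them equally well. The order of the hairpins is such a feature: the strands that rose come from the first hairpin of each cluster.

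MiR-429-3p and miR-141-3p, the last 3p strands of their clusters, had levels in the same range, and which of them was higher varied. They were at 510 and 521, 508 and 416, and 447 and 427 CPM in control replicates 1, 2 and 3. In irradiated replicates 1, 2 and 3 they were at 981 and 776, 484 and 436, and 424 and 511 CPM. MiR-200a-5p was at 338 ± 7.51 CPM in control and 737 ± 24.6 CPM in irradiated libraries (SD, n = 3 each), and the 3p strand of the same hairpin ran from 9041 to 13256 CPM among irradiated libraries.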
